A study of Mus musculus with 6 samples.

Results

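The data described here are the 4C-seq libraries made from the Sox2 control region (SCR) as bait, 2 from mouse embryonic stem (ES) cells and 1 after differentiation of ES cells toward neural precursor cells (NPC). They are 3 of the 6 libraries of the series and were taken by their labels alone: every SCR library is included. The ES cells were of the J1 line (strain 129S4/SvJae) and were grown with LIF, the cytokine that keeps them undifferentiated, and then passaged without feeder cells. Per the Methods, the ES cells differentiated for the NPC library were first grown without feeders in the ES medium with the inhibitors called 2i added. No 2i is described for the J1 ES culture. The NPC library came from cells then kept 6 days without LIF or 2i, in medium with less serum. They were given 5 uM retinoic acid for the last 4 days. No sorting step is described, so the differentiated culture may hold a mixture of cells. No transgene or deletion is described for either group. The labels give the same line and strain for NPC, whereas the Methods of the study name another ES line as their source. 4C counts hold no expression values, so neither cell type could be checked against its marker genes. The study calls the 2 ES libraries biological replicates, and NPC has no replicate.

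The SCR is a cluster of enhancers downstream of Sox2 that is needed for Sox2 expression in pluripotent cells. Sox2 encodes a transcription factor that maintains pluripotency and is also active in neural precursors, where other enhancers of the gene are known to work. 4C-seq lists the DNA fragments that were ligated to 1 chosen fragment, the bait, after crosslinking and cutting of the chromatin. The number of such ligations falls steeply with distance along the chromosome, and an excess over this fall is read as contact. Here the chromatin was cut with DpnII, which recognises GATC. The ligated DNA was cut again with Csp6I, which recognises GTAC, and was then closed into circles.

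The bait lies on mouse chromosome 3 at position 34660500 of build mm9, and Sox2 lies 109.1 kb away toward lower coordinates. The lower-coordinate side is called the Sox2 side and the higher-coordinate side the other side. Chromosome 3 was divided by DpnII into 391360 listed fragments, of which 82722 are on the Sox2 side and 308638 on the other side. The bait fragment and the fragments that carried most reads for either cell type at 100 to 500 kb are shown next, 5′ to 3′ on the plus strand, to make plain what a counted unit is. Those with most reads were picked from fragments of at most 300 bp outside exons. Capitals mark the DpnII sites, the closing one included, and the Csp6I site within a fragment where there is one. The first, labelled bait fragment, is the one that covers the bait position, at chr3:34660499-34660550, and it is not listed with a count. It holds no GTAC site. The study does not print the primer sequences, so this fragment is named by position alone. The second, at chr3:34541752-34541942, lies in an intron of the long noncoding RNA gene Sox2ot, 118.7 kb from the bait on the Sox2 side. The third, at chr3:34955061-34955252, lies between annotated genes, 294.7 kb from the bait on the other side.
Bait fragment: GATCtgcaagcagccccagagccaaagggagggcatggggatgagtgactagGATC
Most ES reads on the Sox2 side: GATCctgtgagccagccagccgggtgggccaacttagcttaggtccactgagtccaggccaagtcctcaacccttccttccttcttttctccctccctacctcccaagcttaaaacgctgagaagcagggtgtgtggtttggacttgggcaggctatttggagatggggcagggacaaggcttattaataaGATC
Most NPC reads on the other side: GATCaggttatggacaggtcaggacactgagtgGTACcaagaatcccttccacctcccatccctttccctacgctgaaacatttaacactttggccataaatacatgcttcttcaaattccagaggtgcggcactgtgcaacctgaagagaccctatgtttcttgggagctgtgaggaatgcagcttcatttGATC

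The Sox2ot fragment held 28107 reads in ES replicate 1, 13190 in ES replicate 2 and 251 in NPC, which is 4359, 3368 and 86.9 RPM, reads per 1000000 reads of the library on chromosome 3. The intergenic fragment held 5, 1863 and 5599 reads in the same order. Both were chosen for these values, so the contrast is a description. The intergenic fragment also shows how far the 2 ES replicates can part at a single fragment.

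The libraries held 6447786 reads on chromosome 3 in ES replicate 1, 3915756 in ES replicate 2 and 2889643 in NPC. These reads fell on 5415, 7667 and 9305 fragments, so the deepest library covered the fewest. Reads were made by PCR without molecular identifiers and are not independent molecules, so intervals here cover counting error only. The widest 95% Wilson half-width of a read share in any side and distance class was 0.0441 percentage points, below the distance between the ES replicates in all 12 classes. Reads of low count were shared unevenly between libraries. Over 5 Mb from the bait, ES replicate 1 and NPC had 1143 fragments in common, 52.8% of the fragments of ES replicate 1 and 24.9% of those of NPC. The 2 ES replicates had only 107 in common there, 4.94% and 3.26% of their fragments. With at least 10 reads in both libraries, the common fragments numbered 22 for ES replicate 1 and NPC, 16 for the ES replicates and 28 for ES replicate 2 and NPC. Of 162 distant fragments with at least 1000 reads in ES replicate 1, 137 also had reads in NPC, with a median of 3 reads, and 10 had reads in ES replicate 2. The cause was not tested. Counts of single reads far from the bait are therefore given beside counts of fragments with at least 10 reads. Setting the shared low counts to 0 removed at most 0.199% of the reads of a library. It took the fragments with a read from 5415 to 4933 in ES replicate 1, 7667 to 7450 in ES replicate 2 and 9305 to 8536 in NPC.

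The first question was where the reads of each library lay. In ES cells most reads lay on the Sox2 side, and in NPC most lay on the other side. Fragments with at least 10 reads were more numerous on the longer other side in every library. They numbered 1539, 2813 and 2728 in ES replicate 1, ES replicate 2 and NPC, against 1218, 2044 and 1560 on the Sox2 side. The Sox2 side took 61.9% of the reads in ES replicate 1, 61.3% in ES replicate 2 and 38.5% in NPC. Both ES replicates lay above NPC by more than 20 percentage points and within 1 point of each other. Between 20 and 500 kb from the bait, the Sox2 side held 38.2%, 36.7% and 14.5% of all reads, an ES mean of 37.5% ± 1.03 (SD, n = 2) that was 2.59-fold the NPC value. The other side at the same distances held 12.3%, 14.4% and 22.9%, so that NPC was 1.71-fold the ES mean of 13.4% ± 1.5 (SD, n = 2). The higher NPC value and the lower one thus lay at matched distances on opposite sides of the bait. Shares were also taken of fragments with at least 10 reads, of which the libraries held 2757, 4857 and 4288. By these shares log2 ES over NPC went from 1.37 to 0.43 on the Sox2 side. On the other side it went from -0.78 to 0.0416, so the direction of the mean turned. The plain numbers of such fragments were 557, 726 and 553 on the Sox2 side. On the other side they were 561, 786 and 756, with NPC between the ES replicates.

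**Figure D1:**
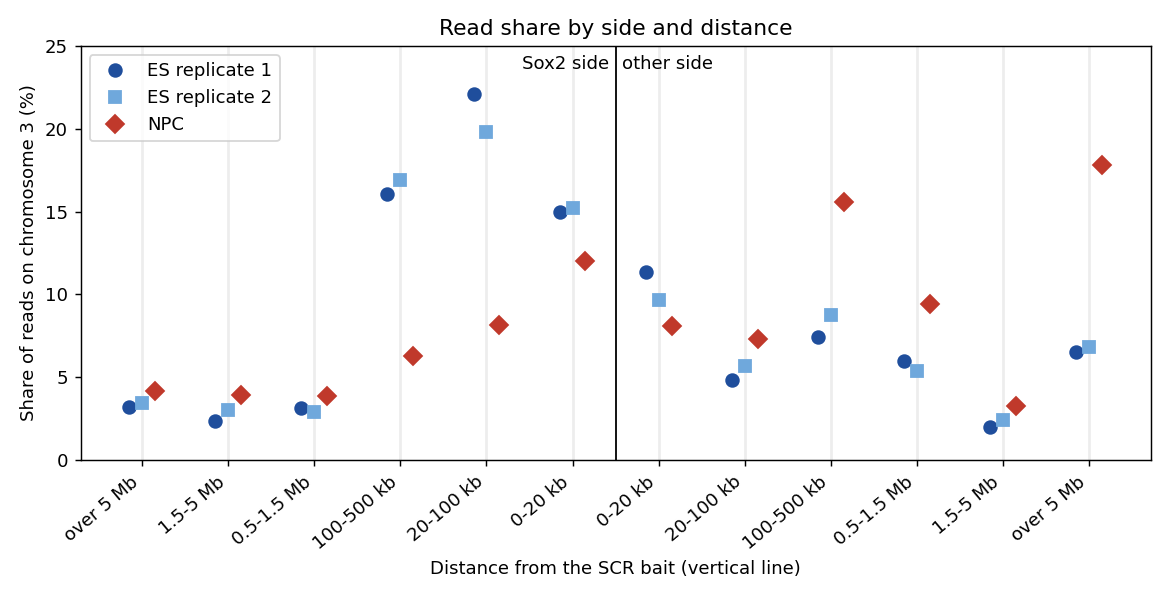
Share of all chromosome 3 reads of a library (y axis, %) in each side and distance class (x axis, the bait at the vertical line), with 1 point per library. From 20 to 500 kb both ES replicates lie above NPC on the Sox2 side and below it on the other side, and over 5 Mb on the other side NPC (17.8%) lies above both (6.50% and 6.80%).

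Class by class, the largest part of the ES excess was close to Sox2. At 20 to 100 kb on the Sox2 side, ES replicate 1 had 22.1%, ES replicate 2 19.8% and NPC 8.16% of the reads. At 100 to 500 kb, where Sox2 itself lies, the shares were 16.1%, 16.9% and 6.30%. In both classes the ES replicates differed by a few points at most and NPC was lower than either by more than 9 points. At 100 to 500 kb on the other side the shares were 7.45%, 8.77% and 15.6%, with NPC above both replicates. At 20 to 100 kb on the other side the gap was smaller, with 4.85%, 5.65% and 7.31%.

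Farther out, NPC held the larger share on both sides. From 0.5 to 1.5 Mb the Sox2 side had 3.16%, 2.89% and 3.88% of the reads of ES replicate 1, ES replicate 2 and NPC, and the other side had 5.98%, 5.40% and 9.45%. From 1.5 to 5 Mb the shares were 2.36%, 3.04% and 3.92% on the Sox2 side and 1.99%, 2.44% and 3.28% on the other side. NPC exceeded both ES replicates in each of these classes, although from 1.5 to 5 Mb the ES replicates were themselves far apart. By the share of a library's fragments with at least 10 reads, the direction turned in all 4 of these classes. Log2 ES over NPC was then 0.144 and 0.358 on the Sox2 side and 0.0545 and 0.0812 on the other side. The plain numbers of such fragments in NPC lay between those of the ES replicates in all 4 classes. Within 20 kb of the bait the order was reversed, with 26.3%, 24.8% and 20.1% over both sides. In all, NPC lay outside both ES values by more than the distance between them in 11 of the 12 classes. The exception was the other side within 20 kb, with 11.3%, 9.66% and 8.12%. ES was higher in 4 classes and NPC in 8. With 2 libraries against 1 there are 3 arrangements and the smallest one-sided exact permutation p is 0.333, so no class was tested.

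The reads beyond 20 kb lay farther out in NPC. Of these reads, the median read lay 119.3 kb from the bait in ES replicate 1, 141.4 kb in ES replicate 2 and 576.9 kb in NPC. On the Sox2 side alone these medians were 107.0, 109.5 and 400.6 kb (81.0, 91.5 and 91.6 kb with the reads within 20 kb, where NPC and ES replicate 2 did not part), and on the other side 592.4, 518.6 and 674.1 kb. Beyond 20 kb the ES medians on the Sox2 side thus fall at the distance of the Sox2 gene, and the NPC median on that side lies far beyond it. All 3 libraries had more distant medians on the other side.

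The left-right asymmetry was computed as log2 of the mean reads per fragment on the Sox2 side over that on the other side, since the 2 arms differ in length. At 20 to 100 kb it was 2.11 in ES replicate 1, 1.73 in ES replicate 2 and 0.08 in NPC. At 100 to 500 kb it was 1.19, 1.03 and -1.23. ES cells therefore had 4.33 and 3.33 times as many reads per fragment on the Sox2 side at 20 to 100 kb, where NPC had nearly equal signal. At 100 to 500 kb the direction differed, with 2.28 and 2.04 times as many on the Sox2 side in ES and 2.35 times as many on the other side in NPC. The difference between the ES mean and NPC was 1.84 and 2.34 in these classes, against an SD between the ES replicates of 0.27 and 0.11.

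The asymmetry was not particular to one cell type at every distance. Within 20 kb it was 0.43, 0.69 and 0.60, with NPC between the replicates, and from 1.5 to 5 Mb it was 0.24, 0.30 and 0.25. From 0.5 to 1.5 Mb all libraries leaned to the other side, with -0.91, -0.89 and -1.27. Over 5 Mb it was 1.06, 1.09 and -0.01. There ES cells kept more signal per fragment on the shorter arm, which is also the nearer one on average, and NPC had equal signal on both.

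**Figure D2:**
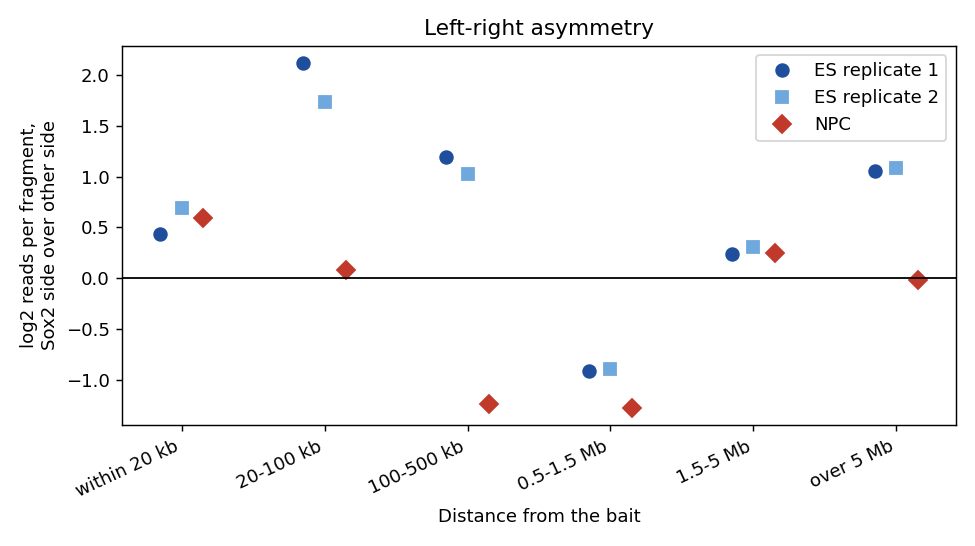
Log2 of mean reads per fragment on the Sox2 side over the other side (y axis) by distance class (x axis), with 1 point per library and the line at equal signal. At 100 to 500 kb both ES replicates are near 1 (1.19 and 1.03) and NPC is at -1.23, while within 20 kb and from 1.5 to 5 Mb NPC falls between or beside the replicates.

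The asymmetry was far larger in the number of reads than in the number of fragments reached. Close to the bait nearly every fragment had a read in each library. From 20 to 100 kb, reads were found on 93.0%, 94.5% and 94.5% of Sox2 side fragments in ES replicate 1, ES replicate 2 and NPC, and on 83.6%, 86.8% and 87.3% of other side fragments. From 100 to 500 kb the shares were 53.1%, 67.9% and 63.7% on the Sox2 side and 61.4%, 74.0% and 75.8% on the other. NPC lay at or between the ES values on the Sox2 side, where the ES read shares were 2.57-fold and 2.62-fold higher on average. The log2 ratio of detection between the sides at 100 to 500 kb was -0.21, -0.12 and -0.25, so ES minus NPC was 0.08, against 2.34 for reads. Among Sox2 side fragments with a read from 100 to 500 kb, the median level was 31.3 RPM in ES replicate 1, 35.0 in ES replicate 2 and 6.40 in NPC. On the other side the medians were 16.1, 29.8 and 30.8, with NPC next to ES replicate 2. With at least 10 reads as the limit, the sides parted in NPC at this distance. The shares were 39.6%, 57.5% and 39.7% on the Sox2 side and 42.7%, 63.0% and 60.4% on the other side. The log2 ratio between the sides was then -0.11, -0.13 and -0.60, an ES minus NPC difference of 0.49 against an SD of 0.02 between the ES replicates.

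Over all classes, the detected share of fragments in NPC lay beyond the spread of the ES replicates in 2 of 12 classes, those over 5 Mb on either side. Over 5 Mb on both sides, 0.590% of fragments had a read in ES replicate 1, 0.895% in ES replicate 2 and 1.25% in NPC. With at least 10 reads the shares were 0.188%, 0.426% and 0.440%, and NPC no longer stood apart from ES replicate 2. From 1.5 to 5 Mb the shares with at least 10 reads were 1.79%, 4.28% and 2.76%, with NPC between the replicates. On the other side alone they were 0.159%, 0.371% and 0.409% over 5 Mb, with NPC above both replicates by less than their spread. The low counts shared with ES replicate 1 fall among the single-read detections. With those counts set to 0, the ES mean minus NPC over 5 Mb went from -0.509 to -0.466 percentage points. Detection also depended on the fragment itself. Over 5 Mb, fragments with a GTAC site had a read more often than those without one, at 0.768% against 0.444% in ES replicate 1, 1.07% against 0.754% in ES replicate 2 and 1.53% against 1.02% in NPC.

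**Figure D3:**
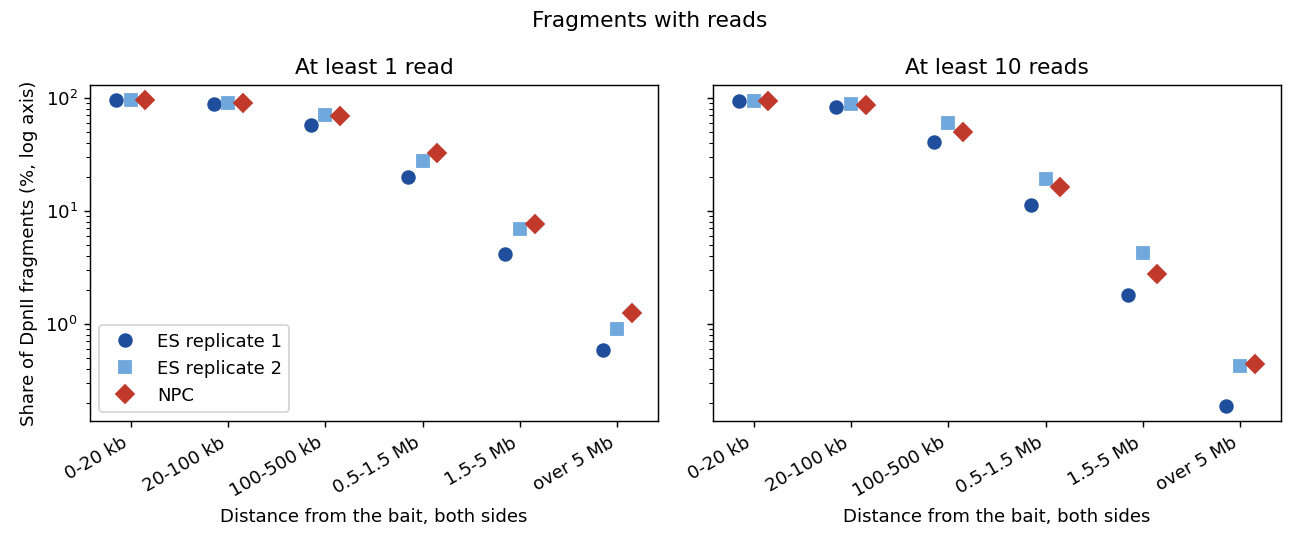
Share of DpnII fragments (y axis, %, log axis) with at least 1 read (left) or at least 10 reads (right) by distance from the bait over both sides, with 1 point per library. NPC has the highest share with at least 1 read beyond 0.5 Mb, and with at least 10 reads it falls between the ES replicates from 100 kb to 5 Mb.

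The fall of signal with distance was measured as the slope of log10 mean reads per fragment on log10 distance, in 10 steps per decade. From 20 kb to 5 Mb on the Sox2 side the slope was -1.47 in ES replicate 1, -1.42 in ES replicate 2 and -1.11 in NPC. On the other side it was -1.11, -1.16 and -1.09. NPC was shallower than both replicates by more than their spread on the Sox2 side, whereas on the other side the libraries did not separate. Without the steps from 80 to 160 kb, which hold Sox2, ES minus NPC on the Sox2 side moved from -0.34 to -0.28. Ending at 1.5 Mb, the Sox2 side slopes were -1.545, -1.553 and -1.166, again beyond the ES spread. From 20 to 500 kb they were -1.34, -1.17 and -1.05, not beyond that spread. From 500 kb to 5 Mb they were -1.35, -1.02 and -1.13, with NPC between the replicates. On the other side NPC was the shallower library from 20 to 500 kb, at -0.81, -0.85 and -0.56.

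Single steps show the shape behind these slopes. Among the 14 steps from 20 to 500 kb on the Sox2 side, ES signal was highest in the step that holds Sox2. It did not rise steadily toward that step. Between 31.7 and 39.9 kb the mean was 1332 RPM per fragment in ES replicate 1, 1223 in ES replicate 2 and 729.1 in NPC. Between 39.9 and 50.2 kb it was lower in all libraries, at 430, 546.8 and 299.2. The size of a rise toward Sox2 thus depends on the step it is counted from. In ES replicate 2 the mean also went from 960.8 to 899.7 over the next 2 steps. Between 100.2 and 126.2 kb, the step that holds Sox2, the mean was 1790, 1698 and 291.8. The ES mean there was 5.98-fold the NPC value, the largest fold of the 14 steps. In the step after Sox2, to 158.9 kb, the mean per fragment was 158.3, 202.0 and 123.2. Both ES replicates therefore lost most of their signal directly past Sox2, and NPC showed a drop of smaller size. Both ES replicates were above NPC in 12 of the 14 steps to 500 kb on the Sox2 side and below it in 12 of the 14 on the other side. From 399.1 to 632.5 kb on the Sox2 side ES was below NPC. From 632.5 to 796.2 kb, a step that spans Fxr1 and Dnajc19, ES was higher again, at 46.1 and 41.5 against 23.9. At the genes themselves ES replicate 2 was close to NPC, with 37.4 against 36.8 RPM per fragment at Fxr1 and 18.7 against 16.5 at Dnajc19. By these steps the ES excess on the Sox2 side was not unbroken with distance. In the bin test below, no bin at 0.5 to 1.5 Mb on this side was called higher in ES.

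**Figure D4:**
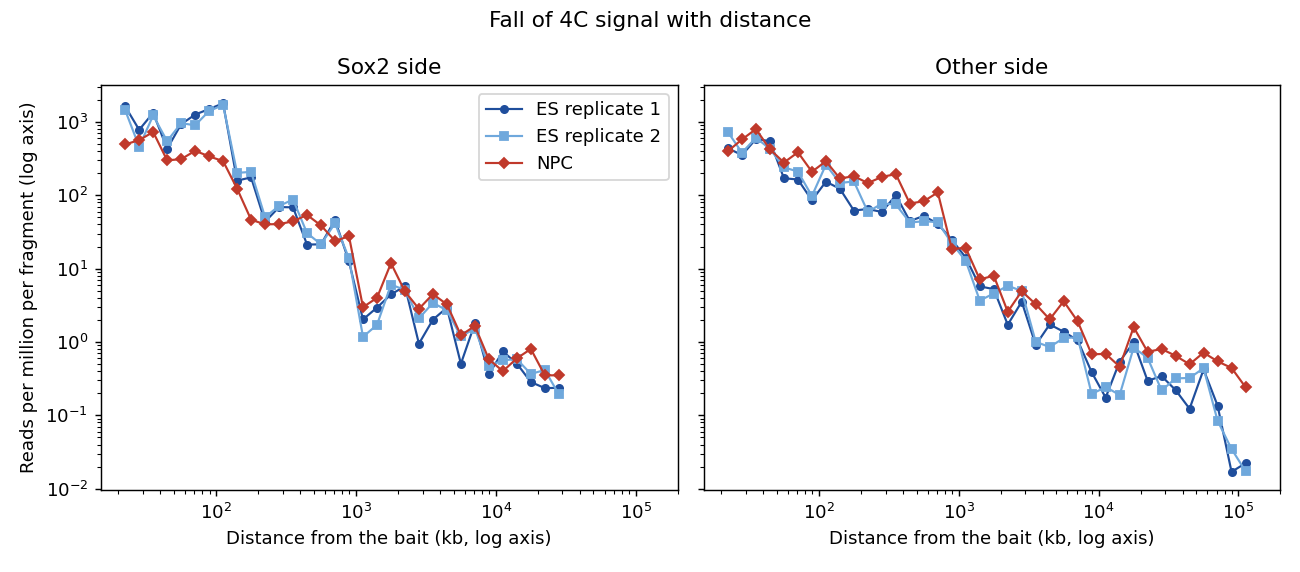
Mean RPM per fragment (y axis, log axis) against distance from the bait (x axis, kb, log axis) on each side, in 10 steps per decade, with 1 line per library. The ES replicates reach 1790 and 1698 at the step holding Sox2, where NPC is at 291.8, and on the other side NPC stays above both ES replicates in 13 of the 14 steps beyond 5 Mb.

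The genes of the region were then read in the same unit. Sox2 spans 6 fragments at chr3:34548927-34551383 and had 5785 RPM per fragment in ES replicate 1, 5296 in ES replicate 2 and 901.1 in NPC, a 6.15-fold higher ES mean. Sox2ot, the long noncoding RNA gene that contains Sox2 and extends beyond it on either side, had 174.4, 178.7 and 68.4, a 2.58-fold higher ES mean that includes the Sox2 reads. For both genes the replicates were close and NPC lay below them. Fxr1, which encodes an RNA-binding protein of the fragile X family, had 48.9, 37.4 and 36.8. Dnajc19, a mitochondrial import factor that overlaps it, had 55.6, 18.7 and 16.5, and Ttc14, a tetratricopeptide repeat gene, had 29.0, 23.1 and 21.0. In none of these did NPC lie beyond the ES spread. Ccdc39, needed to assemble motile cilia, had 2.62, 18.1 and 54.3, and Pex5l, a neuronal regulator of HCN channels, had 2.78, 2.95 and 16.8. NPC was higher for both beyond the ES spread, by 5.25-fold and 5.86-fold. For Ccdc39 this fold was 20.8 against ES replicate 1 alone and 3.005 against ES replicate 2 alone, and 8, 20 and 14 of its 80 fragments had at least 10 reads. Of the 405 fragments of Pex5l, 14, 25 and 28 had at least 10 reads, so the numbers of covered fragments differed less than the reads. Usp13, a deubiquitinase gene farther out on this side, had 5.09, 13.7 and 14.1, with the NPC value next to ES replicate 2. On the other side, Atp11b, a phospholipid flippase gene, had 21.4, 9.42 and 15.4. Dcun1d1, a neddylation factor gene, had 20.9, 24.8 and 21.0, and Mccc1, an enzyme gene of leucine breakdown, had 8.62, 30.6 and 23.3. All 3 had NPC between the ES replicates. The larger share of NPC reads on the other side was thus not at these genes.

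The only test across the chromosome compared bins of reads counted outward from the bait, 10 kb wide up to 1.5 Mb, 100 kb wide up to 5 Mb and 1 Mb wide beyond. Only the ES replicates inform its spread, and NPC was taken to have a spread of the same size. Of 504 bins tested with edgeR's quasi-likelihood test and Benjamini-Hochberg adjustment, 33 passed an adjusted p of 0.05, which is 6.55% of the bins. Higher in ES were 13 (2.58%), and lower in ES were 20 (3.97%). With the shared low counts set to 0 these were 13 and 18. All 13 bins higher in ES were on the Sox2 side between 20 and 270 kb from the bait. They were 7 of the 8 bins at 20 to 100 kb and 6 of the 40 bins at 100 to 500 kb. Of the 20 lower in ES, 1 at 0.5 to 1.5 Mb and 1 over 5 Mb were also on the Sox2 side. The calls depended on the scaling and the tool. These values used the library totals. With TMM factors, which take most bins as unchanged, the median log2 ES over NPC of all bins moved from -0.68 to 0.18 and edgeR called no bin (26 higher and 13 lower at an unadjusted p under 0.05, against 18 and 60). DESeq2 with its own size factors gave a similar median of 0.21 but called 31 bins higher and 15 lower. The 10 bins with the largest called increase in ES were higher in ES under each of these settings. Under TMM their log2 fold changes were larger, at 3.62 against 2.76 for the bin over Sox2, while each had an adjusted p of 0.313.

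The bins over Sox2 carried the firmest calls. The bin at 100 to 110 kb (chr3:34550501-34560500), which overlaps Sox2 and Sox2ot, held 46070 RPM in ES replicate 1, 46310 in ES replicate 2 and 6832 in NPC. Its log2 fold change was 2.76 ± 0.19 (SE; edgeR, adjusted p = 3.47e-28). Next to it, the bin at 110 to 120 kb held 48750, 42170 and 8402, with a log2 fold change of 2.44 ± 0.19 (SE; edgeR, adjusted p = 1.97e-24). The replicates nearly coincided there, and NPC had its own most-read bin of the class at 110 to 120 kb as well. Between the SCR and Sox2, at 50 to 60 kb (chr3:34600501-34610500, no annotated gene), the values were 25650, 25110 and 8239, with a log2 fold change of 1.62 ± 0.25 (SE; edgeR, adjusted p = 8.68e-08). Past Sox2, within Sox2ot, the bins at 150 to 160, 160 to 170, 190 to 200 and 260 to 270 kb had larger log2 fold changes of 2.95 to 4.45 at much lower levels. The last of these held 4302, 3235 and 372.7 RPM. These distant Sox2ot bins had the larger standard errors, 0.60 to 1.23. On fragments with a GTAC site alone, the calls at 50 to 60 kb (adjusted p = 0.314 in edgeR), at 80 to 90 kb (0.405) and in these 4 Sox2ot bins (0.172 to 0.498) were lost, whereas both bins over Sox2 still passed (1.22e-05 and 5.16e-05).

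On the other side no bin was called higher in ES. Called lower were 1 of 8 bins at 20 to 100 kb, 3 of 40 at 100 to 500 kb and 3 of 100 at 0.5 to 1.5 Mb. All 7 lie where no gene is annotated. The bin with most NPC reads of its class, at 350 to 360 kb (chr3:35010500-35020499), held 2384 RPM in ES replicate 1, 1938 in ES replicate 2 and 9295 in NPC. Its log2 fold change was -2.11 ± 0.57 (SE; edgeR, adjusted p = 0.00688). At 700 to 710 kb (chr3:35360500-35370499) the values were 880.5, 1030 and 6881, with a log2 fold change of -2.85 ± 0.75 (SE; edgeR, adjusted p = 0.00595). The replicates were close in both, and NPC was several times higher. Neither bin passed with TMM (edgeR, adjusted p = 0.655 and 0.533) or with DESeq2 (adjusted p = 0.439 and 0.134). Nor did they pass in edgeR with counts capped (adjusted p = 0.0887 and 0.0737) or on GTAC fragments (0.419 and 0.657). By detected fragments their log2 values were 0.51 and 0.0923. That setting scales by the detected fragments of each library (5415, 7667 and 9305). The bin at 100 to 110 kb on the Sox2 side, with 16 detected in each library, came out at 0.504. The change of sign thus does not show more detected fragments in ES. Without regard to the call, both ES replicates lay below NPC in 31 of the 40 bins at 100 to 500 kb, where the median log2 fold change was -1.02, against -0.68 over all tested bins. On the Sox2 side at 100 to 500 kb both lay above NPC in 18 of 40 bins and below it in 14, with a median of 0.45. The Sox2 side excess at this distance was thus carried by fewer bins than the other side deficit.

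**Figure D5:**
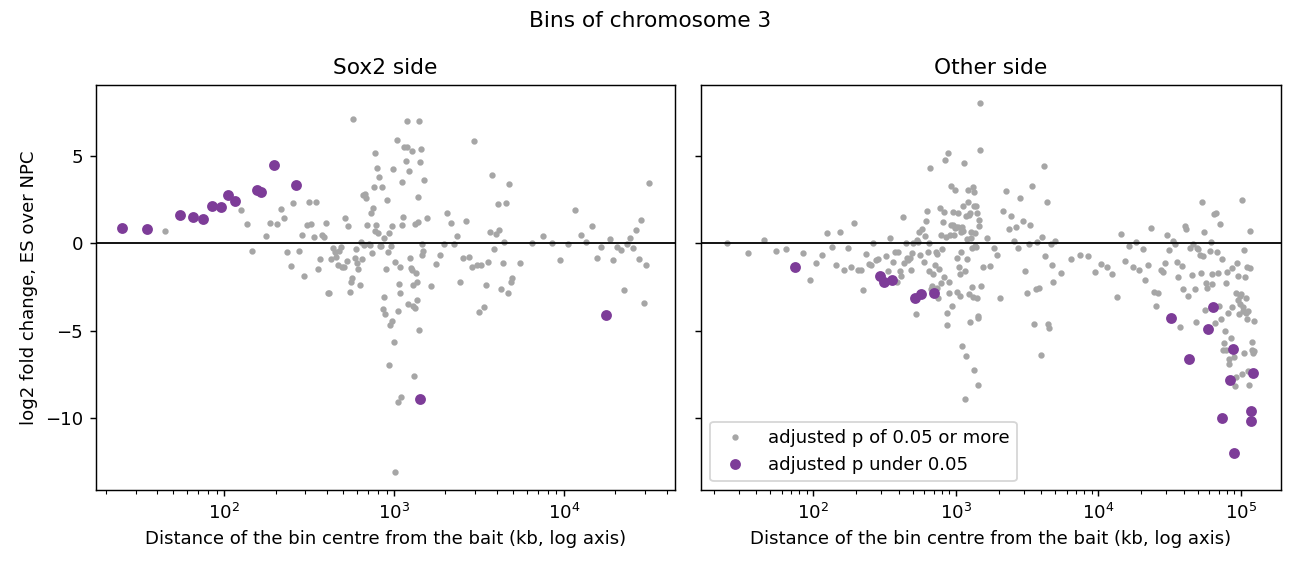
Log2 fold change of ES over NPC (y axis) for the 504 tested bins against the distance of the bin centre from the bait (x axis, kb, log axis), on each side, with the 33 bins past an adjusted p of 0.05 in purple. Those above 0 are all on the Sox2 side within 270 kb, and those on the other side all lie below 0. On the Sox2 side 1 at 0.5 to 1.5 Mb and 1 over 5 Mb lie below 0 as well.

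Over 5 Mb from the bait NPC held 22.0% of its reads, against 9.72% in ES replicate 1 and 10.2% in ES replicate 2. The share over 5 Mb was 14.2% to 24.4% in the other 3 libraries of the series. NPC lay within their range and both ES SCR libraries lay below it. Those libraries used baits on other chromosomes, of 229546 or 295446 fragments against 391360 here. The length of chromosome beyond 5 Mb thus differs, and the shares are not on a like scale. The difference was larger on the long other side, with 6.50%, 6.80% and 17.8%, than on the Sox2 side, with 3.22%, 3.43% and 4.19%. The latter turned on GTAC fragments alone, to a log2 ES over NPC of 0.0889. It was also largest at the far end of the chromosome. From 75 Mb to the end, a range picked after its values were seen, the shares were 0.220%, 0.286% and 3.92%, and NPC was 15.5-fold the ES mean. In that range 28, 86 and 249 fragments had at least 10 reads. These were 0.0232%, 0.0713% and 0.207% of the fragments, with NPC beyond the ES spread. In the same order, 2, 7 and 11 fragments held 50% of the reads. Many of the reads at the chromosome end thus rest on few fragments in each library, NPC included.

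The bin test showed the same far region. Of the 120 tested bins over 5 Mb on the other side, 11 were called lower in ES, and both ES replicates lay below NPC in 98. The largest change was at 89 to 90 Mb from the bait (chr3:123660500-124660499, with Tram1l1 among its genes), where ES replicate 1 had 7 reads, ES replicate 2 had 1 and NPC 8671. At 118 to 119 Mb (chr3:152660500-153660499, with Acadm, an enzyme gene of fatty acid oxidation) there were 15, 11 and 8516 reads. A single fragment held 97.8% of these NPC reads, whose call was lost on GTAC fragments alone (edgeR, adjusted p = 0.902), and 52.4% of those at 89 to 90 Mb. At 74 to 75 Mb (chr3:108660500-109660499), which holds Vav3 and Ntng1, there were 27, 7 and 8836 reads, on 11 fragments with at least 10 reads in NPC. Over the 11 called bins, 3 to 23 NPC fragments had at least 10 reads, of 2281 to 2855 fragments in a bin, and the top fragment held 31.6% to 97.8% of the NPC reads. With fragments counted in place of reads, no bin of the chromosome passed in either direction (3 higher and 21 lower at an unadjusted p under 0.05), and the part of PCR in the far bins was not tested.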

How the data were processed

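Per the labels and the study's methods, the authors amplified 4C libraries with bait primers, sequenced 50 nt reads, removed the bait part to leave 27 nt, aligned them to mm9 with Bowtie 1.0.0 and deposited raw read counts per DpnII fragment, listed by fragment midpoint. Their pipeline leaves out fragments with over 2% of all reads, and the fragment at the bait position is unlisted, so shares are of the reads that remained. All 391360 midpoints matched DpnII fragments of the NCBIM37 (mm9) sequence, and genes are GENCODE vM1.

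Reads on chromosome 3 were summed by side and distance and divided by the library total. NPC was called beyond the ES spread where it lay outside both ES values by more than the distance between them. Bins with at least 30 reads over the 3 libraries were tested with edgeR 4.0.16 (R 4.3.3), with library totals as offsets. The SE given for a bin was derived as its absolute log2 fold change over the square root of the test's F statistic. It includes no measured spread of NPC. DESeq2 1.42.0 was an alternative. Members, distance classes and genes were chosen with earlier results of these data known. Named genes were Sox2, Sox2ot, their neighbours, and genes in bins with the most reads of a class or among the 10 largest changes in each direction, of which those the results turn on are given.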

Additional observations from a re-analysis of the deposited data

How the results depend on the processing

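No paired analysis was possible because the groups share fewer than 2 replicate numbers. Of 445 recomputed values, 57 of summaries and 236 of single classes or bins kept their direction and their size or call. Of the summaries, 33 changed in size and 1 reversed. Of single classes or bins, 44 changed in size, 62 lost their call and 12 reversed. Outside the bins, leaving out 1 ES replicate moves the ES mean by no more than the ES SD, the limit for a kept size. Those values were kept by construction and do not test stability. The log2 share on the Sox2 side at 20 to 500 kb, 1.373, was 1.345 without ES replicate 1 and 1.401 without ES replicate 2 (SD 0.03978). Values below are log2 ES over NPC or ES minus NPC, as in the main results.

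The share on the Sox2 side at 20 to 500 kb, 1.37, became 1.48 with reads beyond 20 kb as the total and 1.24 with counts capped. It was 1.14 with reads from 20 kb to 1.5 Mb as the total and 0.43 by the share of fragments with at least 10 reads. The 1.5 Mb total, fragments with at least 10 reads in place of reads and the zeroed shared counts were chosen after seeing the data. The other side, -0.78, became -1.02 with the 1.5 Mb total. It reversed to 0.0416 by the share of a library's fragments with at least 10 reads. That setting also reversed the Sox2 side at 0.5 to 1.5 Mb (0.144) and 1.5 to 5 Mb (0.358) and the other side at 20 to 100 kb (0.153), 100 to 500 kb (0.00887), 0.5 to 1.5 Mb (0.0545) and 1.5 to 5 Mb (0.0812). In each class reversed so, the plain number of such fragments in NPC lay between those of the ES replicates. Within 20 kb, 0.35 became 0.45 on GTAC fragments and 0.24 by the share of fragments with at least 10 reads. Over 5 Mb, -1.14 became -1.04 beyond 20 kb, -1.08 capped and -1.22 on GTAC fragments. By the share of fragments with at least 10 reads it was -0.41. On the Sox2 side alone over 5 Mb it reversed to 0.0889 on GTAC fragments. Detection, with at least 10 reads, went from -8.61 to -0.944 points at 0.5 to 1.5 Mb, from -0.509 to -0.133 over 5 Mb, and reversed to 0.279 at 1.5 to 5 Mb. Asymmetry by detection was 0.0241 at 20 to 100 kb, 0.0834 at 100 to 500 kb and reversed to -0.154 at 0.5 to 1.5 Mb. By fragments with at least 10 reads it was 0.115 and 0.486 in the first 2 of these. At 100 to 500 kb it was 1.98 capped and 2.49 on GTAC fragments. Slope differences on the Sox2 side were -0.38 to 1.5 Mb, -0.10 by detection and -0.28 without 80 to 160 kb, and on the other side -0.0871 and -0.0970 for the former 2.

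Bins higher and lower in ES, 13 and 20, became 0 and 0 with TMM (26 and 13 unadjusted), 31 and 15 with DESeq2, 0 and 0 by detected fragments (3 and 21 unadjusted), 7 and 15 at 2 times the width, 11 and 11 capped, and 4 and 4 on GTAC fragments. By detected fragments the other side bins at 350 to 360 kb (0.506), 700 to 710 kb (0.0923) and 88 to 89 Mb (0.0484) reversed. With that scaling, a Sox2 side bin with 16 detected fragments in each library gave 0.504. These reversals thus do not show more detected fragments in ES. The causes were not tested. Leaving out an ES library leaves no residual degrees of freedom, so bins were then values without a test. The lone NPC library limits every comparison, and few distant fragments hold most reads.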
